A study of Mus musculus with 16 samples.

Results

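The 10 genes described here encode the cap-binding protein eIF4E and its relatives (*Eif4e*, *Eif4e2*, *Eif4e3*), the eIF4E-binding proteins (*Eif4ebp1*, *Eif4ebp2*, *Eif4ebp3*), the eIF4G scaffolds (*Eif4g1*, *Eif4g2*, *Eif4g3*) and the helicase subunit *Eif4a2*. They were picked by symbol from the 48397 gene symbols counted in every library, and 9 of the 10 had enough reads to be among the 17038 genes tested. *Eif4ebp2* was chosen because it led the comparison of apoE4 with control in an earlier look at these libraries, so its differences between groups are given as a description: no p is given for them, and their SEs, intervals and calls below describe the fit and support nothing. The other 9 genes were chosen by their place in the same complex, with their values in these libraries already known.

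RNA was sequenced from primary hippocampal neurons of wild type CD1 mice, taken from newborn pups, at 17 days in vitro (DIV). Conditioned medium, concentrated 10-fold, was added at 10 and 13 DIV, and the 4 groups of 4 libraries differed in the astrocytes that had made it. Control neurons received medium of immortalized *Apoe*-/- astrocytes, which holds no apoE, and the treated neurons received apoE2, apoE3 or apoE4 lipoproteins from immortalized astrocytes homozygous for the human ε2, ε3 or ε4 allele in place of the mouse gene. Each isoform thus came from its own immortalized line, and the isoform and the line cannot be told apart. All cultures had been given cytosine arabinoside to hold back dividing cells.

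Most mRNAs begin with a methylated cap. eIF4E binds it, eIF4G bridges eIF4E to the helicase eIF4A and to the small ribosomal subunit, and the assembled eIF4F complex lets the ribosome scan towards the start codon. The 4E-BPs occupy the face of eIF4E that eIF4G needs and so block assembly, until phosphorylation by the kinase complex mTORC1 releases them. 4E-BP2 is known as the main 4E-BP of the brain, where it restrains translation during synaptic plasticity.

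The libraries held 14087723 to 34248172 reads on genes, and 12.1 to 41.4% of the uniquely aligned reads of a library fell on no annotated gene. Libraries that carry the same replicate number deviated together from their group means. The 8 neuron markers summed to 2605 to 6564 CPM (counts scaled to a common library size) and the 7 astrocyte markers to 523 to 6064 CPM. In 3 of the 16 libraries (apoE3 replicates 1 and 4 and apoE4 replicate 4) the astrocyte sum was above the neuron sum. By GFAP staining of such cultures the study found a small share of astrocytes, which did not vary significantly with treatment. The lists hold different genes, so their sums do not give the share of each cell type. None of the markers of either list was at 0 in any group. In RNA of a whole culture, fewer cells of a type and less RNA per cell cannot be told apart.

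*Eif4ebp2* RNA was several times higher in neurons given apoE4 than in any other group, and no library of another group reached the lowest apoE4 library. In control neurons replicates 1 to 4 had 7.54, 5.83, 5.16 and 6.75 CPM of *Eif4ebp2*. With apoE2 the corresponding levels were 6.62, 6.11, 6.24 and 5.28 CPM. With apoE3 they were 10.4, 7.21, 9.06 and 15.9 CPM. Control and apoE2 libraries therefore lay in the same range, and apoE3 replicates 1, 3 and 4 lay above all 8 of them. With apoE4 the levels were 85.9, 29.8, 38.0 and 57.9 CPM. Replicate 1 was the highest apoE4 library and replicate 2 the lowest, and the group was also the most spread. As counts, the gene had 129 to 166 reads in a control library and 687 to 1268 in an apoE4 library.

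The mean level of *Eif4ebp2* was 6.32 ± 1.04 CPM (SD, n = 4) in control neurons, 6.06 ± 0.561 with apoE2, 10.7 ± 3.76 with apoE3 and 52.9 ± 25.0 with apoE4. The fitted difference from control was 3.06 ± 0.31 (SE) on the log2 scale with apoE4, or 8.37-fold, with a 95% interval of 2.39 to 3.74. Among same-numbered libraries the apoE4 library was higher in 4 of 4 pairs, by 11.4-fold for replicate 1, 5.11-fold for replicate 2, 7.36-fold for replicate 3 and 8.59-fold for replicate 4. With apoE3 the fitted difference from control was 0.75 ± 0.30 (95% interval 0.12 to 1.39), the apoE3 library was higher in 4 of 4 pairs, by 1.24- to 2.36-fold, and the groups overlapped. Without apoE3 replicate 4, which also had the most astrocyte marker RNA, it was 0.49. With apoE2 it was -0.06 ± 0.30 (95% interval -0.70 to 0.57), with 2 of 4 pairs higher. The apoE4 group also lay above the other isoform groups, by 2.31 ± 0.30 over apoE3 and 3.13 ± 0.32 over apoE2 on the log2 scale. All these comparisons share libraries, the control or the apoE4 group, and are not independent of each other.

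Without the 4 libraries of replicate number 1, which include the highest apoE4 value, the log2 difference between apoE4 and control was 2.83, and without those of number 2 it was 3.20. In apoE4 replicates 1 to 4 reads on no annotated gene made up 41.4, 15.8, 32.2 and 34.9% of uniquely aligned reads, and the gene *Lars2* took 12.2, 0.359, 8.13 and 9.83% of the reads on genes. ApoE2 replicate 1 had 39.2% and 15.025%, and apoE3 replicate 1 had 36.6% and 12.5%, with 6.62 and 10.4 CPM of *Eif4ebp2*. Over the control libraries *Eif4ebp2* had at most 7.54 CPM. The part of these measures in its level was not tested.

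**Figure D1:**
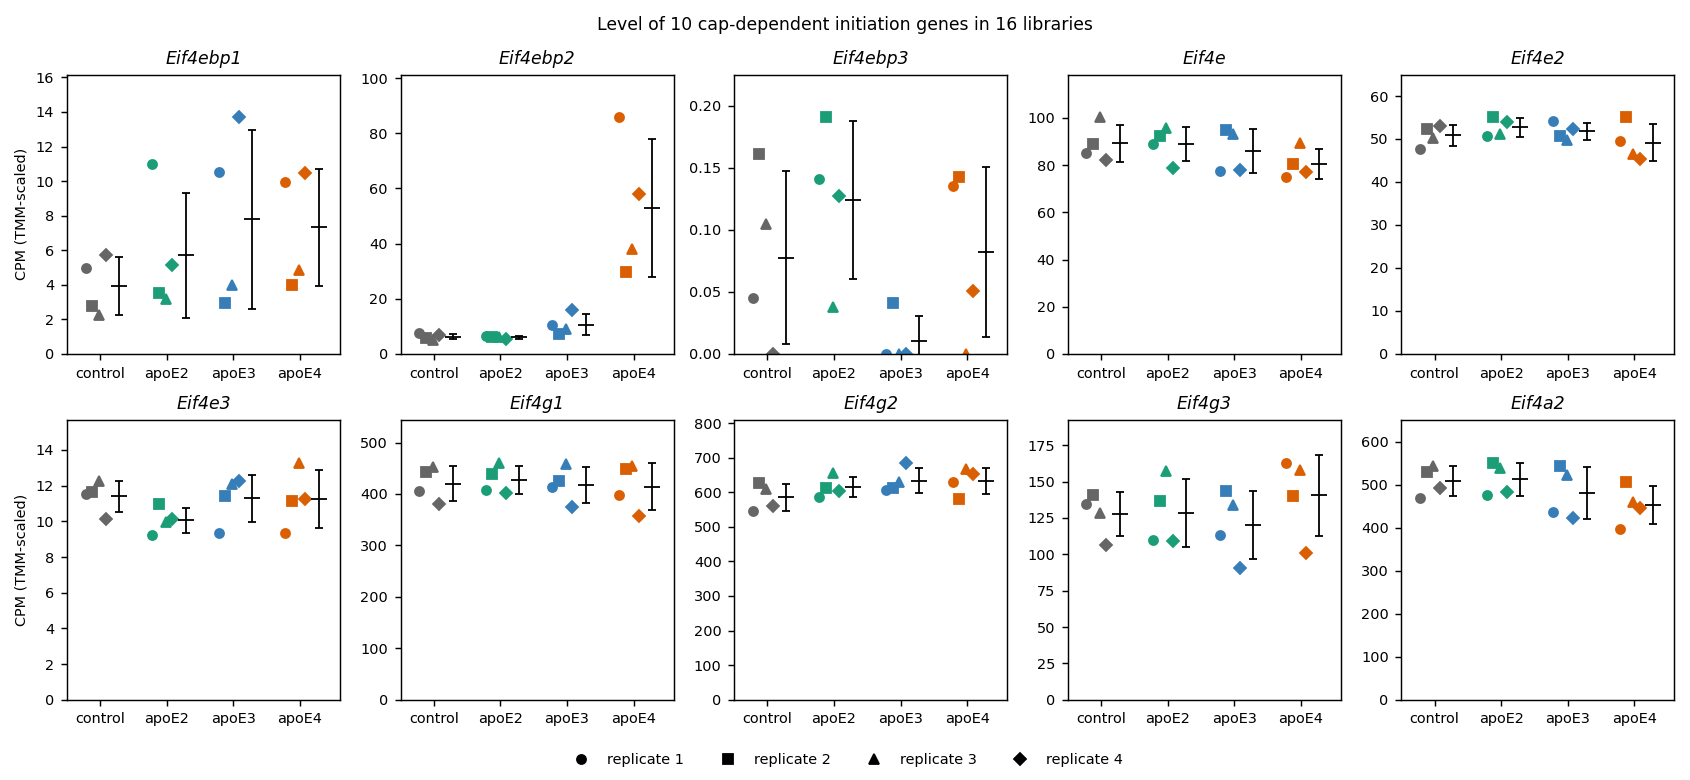
Level of each of the 10 genes in TMM-scaled CPM (linear axes from 0) in the 16 libraries, by group, with the mean and SD of the 4 libraries beside the points and the marker shape giving the replicate number. *Eif4ebp2* lies between 29.8 and 85.9 CPM with apoE4 and at or below 15.9 CPM elsewhere, *Eif4ebp1* is high in replicates 1 and 4 of most groups, and the eIF4E, eIF4G and *Eif4a2* panels show overlapping groups.

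*Eif4ebp2* lies on the minus strand of chromosome 10, at chr10:61428491-61452661 of mm10 in the GENCODE M21 annotation, and no other annotated gene overlaps its exons. Its longest 3′UTR has 5309 bases of a transcript of 5784 bases, or 91.8%, the longest 3′UTR among the 10 genes. Of the 14026 tested genes with a 3′UTR, 4.16% have one as long, and the median is 1386 bases. The next longest among the 10 genes belong to *Eif4g2*, with 4945 bases, and *Eif4e*, with 4195 bases, and their log2 differences between apoE4 and control were 0.11 and -0.15. Genes around the locus were compared in the same fit. Of the 8 tested genes within 250 kb of *Eif4ebp2*, 0 were called with apoE4 by edgeR's adjusted p, with or without the replicate block (0.194% of all tested genes without it and 3.3% with it). At an unadjusted p under 0.05 there were 0 without the block, against 3.3% of all, and DESeq2 called 0. At such shares nothing is read from 0 of 8. Their log2 differences from control ran from -0.18 (*Tbata*) to 0.13 (*Adamts14*), with the nearest of them, *Lrrc20*, at -0.18.

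*Eif4ebp1*, the 4E-BP best known from liver, muscle and fat, followed the replicate number more than the treatment. Its levels in replicates 1 to 4 were 4.95, 2.77, 2.23 and 5.70 CPM in control neurons and 10.98, 3.55, 3.18 and 5.16 CPM with apoE2. They were 10.5, 2.95, 4.0 and 13.7 CPM with apoE3, and 9.95, 3.99, 4.87 and 10.5 CPM with apoE4. In each group replicates 1 and 4 were above replicates 2 and 3, and all groups overlapped. Of the variance of its log2 level, 68.9% lay between replicate numbers and 19.4% between groups, against 4.26 and 91.3% for *Eif4ebp2*. On the log2 scale *Eif4ebp1* differed from control by 0.54 with apoE2, 0.99 with apoE3 and 0.90 with apoE4 (SE 0.54 for each). Single libraries weighed on these values: without apoE2 replicate 1 the apoE2 difference was 0.02, and without apoE3 replicate 4 the apoE3 difference was 0.56. With the replicate number as a block the estimates with apoE3 and apoE4 were 0.87 ± 0.23 and 0.88 ± 0.23, and the library was higher than its control in 4 of 4 pairs for each. With apoE2 the blocked estimate was 0.49 ± 0.23, with 3 of 4 pairs higher. Neither the apoE2 nor the apoE4 difference was called with the block.

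Marker sums of other cells are given beside *Eif4ebp1*. Without the block 0 of the markers of any list were called against control, where 0 to 0.194% of all tested genes were. The 7 astrocyte markers summed to 1448 ± 842 CPM in control neurons, 1932 ± 853 with apoE2, 3279 ± 2233 with apoE3 and 2570 ± 1668 with apoE4 (SD, n = 4). With the block 7 of the 7 were higher with apoE3 (11.7% of all tested genes called) and 3 of the 7 with apoE4 (3.3% of all) at an edgeR adjusted p below 0.05. The 6 fibroblast and mural markers summed to 85.6 to 159 CPM in replicate 1 libraries and 105 to 301 CPM in replicate 4 libraries, against 13.2 to 16.7 CPM in replicate 2 and 13.7 to 29.4 CPM in replicate 3. *Eif4ebp1* had 4.95 to 10.98 CPM in replicate 1 and 5.16 to 13.7 CPM in replicate 4, against 2.77 to 3.99 CPM in replicate 2 and 2.23 to 4.87 CPM in replicate 3. The 7 oligodendrocyte lineage markers summed to 288 ± 168 CPM in control neurons, 376 ± 310 with apoE2, 506 ± 360 with apoE3 and 385 ± 262 with apoE4, and with the block 3 of the 7 were higher with apoE3 and 1 of the 7 with apoE4. The 5 markers of dividing cells summed to 28.9 ± 7.29 CPM in control neurons, 41.5 ± 5.77 with apoE2, 53.0 ± 6.85 with apoE3 and 36.0 ± 8.83 with apoE4. With the block 1 of the 5 was higher with apoE2 (1.73% of all tested genes called), 1 with apoE3 (11.7%) and 0 with apoE4 (3.3%). Of the 6 fibroblast and mural markers the block called 1 higher with apoE3 and 1 with apoE4, and of the 8 neuron markers 1 higher and 2 lower with apoE3 and 0 with apoE4. The 5 microglia markers had group means of 13.1 to 13.8 CPM, with 5.82 to 27.9 CPM in a library, and the block called 0 of them against control. The part of these cells in the level of *Eif4ebp1* was not tested. For *Eif4ebp2*, apoE4 replicates 1 to 4 had 2553, 709, 2260 and 4757 CPM of astrocyte markers beside the levels given above, and the part of these cells there was likewise not tested.

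**Figure D2:**
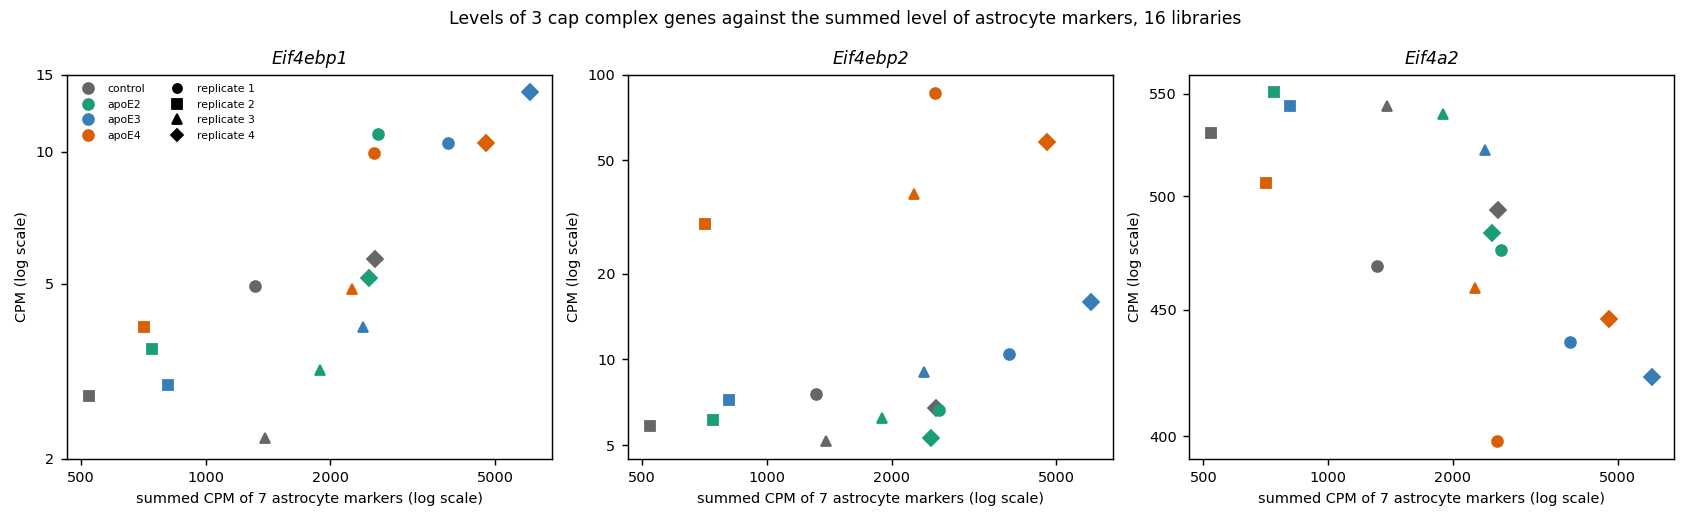
CPM of *Eif4ebp1*, *Eif4ebp2* and *Eif4a2* (log axes) against the summed CPM of 7 astrocyte markers (log axis) in the 16 libraries, with colour giving the group and shape the replicate number. *Eif4ebp1* is highest (13.7 CPM) in the library with the most astrocyte marker RNA (6064 CPM), and *Eif4a2* is lower in most libraries rich in these markers. The 4 apoE4 libraries have the highest levels of *Eif4ebp2* and hold 709 to 4757 CPM of the markers. The part of astrocytes in these levels was not tested.

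*Eif4ebp3*, the third binding protein, was barely detected. It had 30 reads in all 16 libraries together, 0 to 5 in a library, with 8 in control, 13 in apoE2, 1 in apoE3 and 8 in apoE4 libraries, and it was not tested. On chromosome 18, 67.3% of its exon bases are shared with another annotated gene on the same strand, AC115631.1, so that reads of the pair may not have been counted for either.

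The make-up of 4E-BP RNA differed with apoE4. Levels were divided by the length of each gene's exons (CPM per kb) to compare genes with each other. *Eif4ebp2* made up 37.8 ± 5.47% (SD, n = 4) of the summed 4E-BP level in control neurons, 30.6 ± 10.5% with apoE2, 37.8 ± 10.3% with apoE3 and 72.5 ± 3.77% with apoE4. *Eif4ebp1* made up 57.9 ± 9.35, 64.7 ± 11.3, 61.6 ± 10.96 and 26.5 ± 3.89% in the same order. *Eif4ebp1* RNA was thus the larger share in the average of each of the other groups and the smaller share in all 4 apoE4 libraries, where *Eif4ebp2* held 67.4 to 75.9%.

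Set against *Eif4e*, the summed 4E-BP level was 20.5 ± 7.20 per 100 of *Eif4e* in control neurons (CPM per kb; SD, n = 4). The ratio was 26.1 ± 11.95 in the apoE2 group, 39.8 ± 24.9 in the apoE3 group and 96.2 ± 49.2 in the apoE4 group. The apoE4 libraries ran from 53.3 to 156.5 and the control libraries from 12.3 to 27.5, without overlap, whereas apoE3 replicate 4, at 69.4, lay above apoE4 replicates 2 and 3. These are ratios of RNA, and the amounts of the proteins or their phosphorylation are not analysed here.

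**Figure D3:**
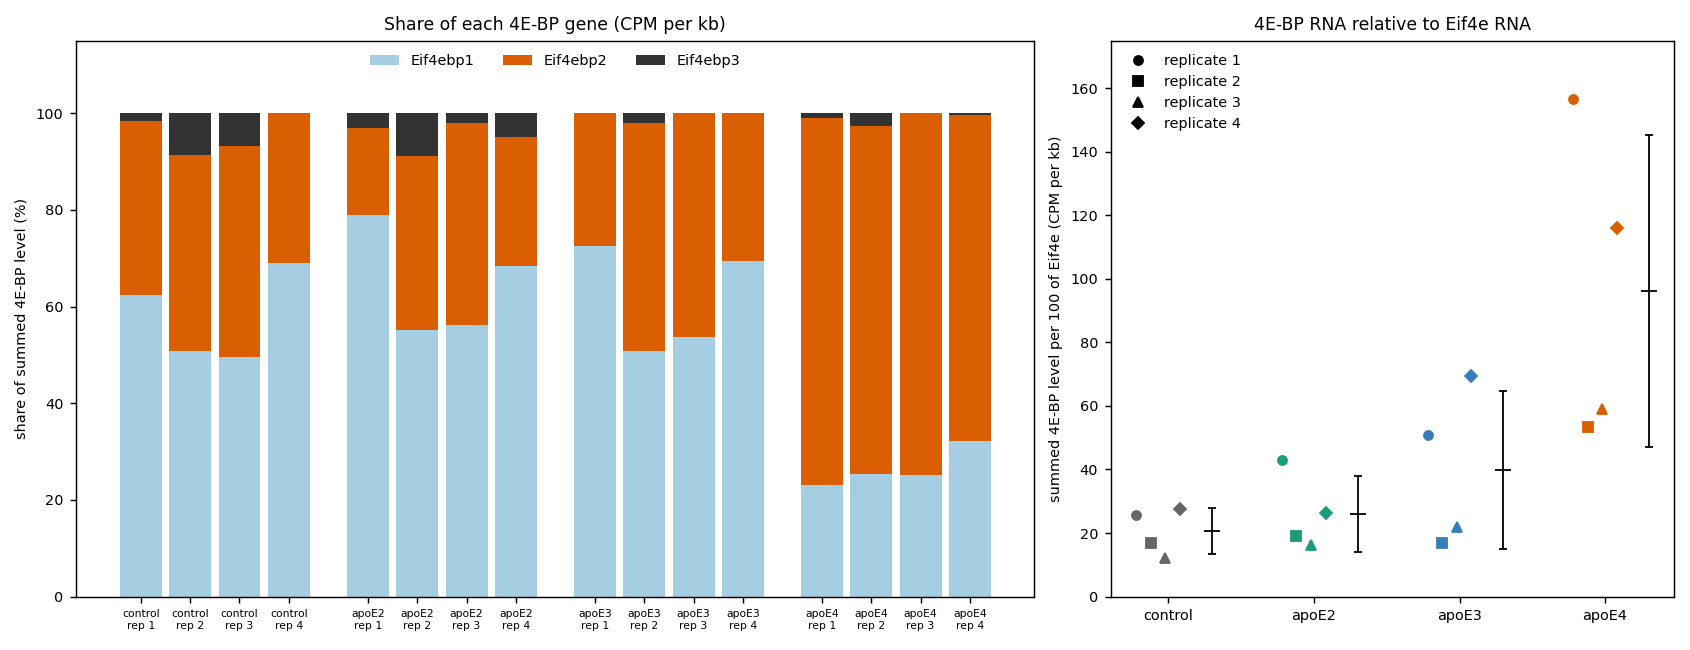
Left, share of each 4E-BP gene in the summed 4E-BP level (CPM per kb of exon, percent) in each of the 16 libraries. Right, summed 4E-BP level per 100 of *Eif4e* (CPM per kb) by group, with the mean and SD of 4 libraries. *Eif4ebp2* takes 67.4 to 75.9% in the apoE4 libraries, and the ratio there is 53.3 to 156.5 against 12.3 to 27.5 in control libraries.

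The cap-binding genes themselves differed little between groups. *Eif4e*, the canonical cap-binding subunit, had 85.2, 89.0, 100.3 and 82.2 CPM in control replicates 1 to 4. With apoE4 it had 75.1, 80.7, 89.5 and 77.0 CPM. Each apoE4 library was below the control library of its number, by a log2 difference of -0.18 to -0.09, while the groups overlapped. The fitted difference was -0.15 ± 0.10 with apoE4 (95% interval -0.36 to 0.07, and -0.28 to -0.01 with the replicate block), -0.05 ± 0.10 with apoE3 and 0.00 ± 0.10 with apoE2. For apoE4 the edgeR adjusted p with the block was 0.257, and without control replicate 3 the unblocked difference was -0.085. *Eif4e2*, which encodes 4EHP, a cap-binding protein that does not bind eIF4G and represses translation, ranged over all 16 libraries from 45.2 to 55.1 CPM, and its differences from control were 0.05, 0.03 and -0.05 with apoE2, apoE3 and apoE4 (SE 0.08 for each). *Eif4e3*, the least expressed of the cap-binding genes, ranged from 9.22 to 13.3 CPM. It was lower than control in 4 of 4 pairs with apoE2 (-0.18 ± 0.13, 95% interval -0.46 to 0.10), with overlapping groups, and differed by -0.01 ± 0.13 with apoE3 and -0.02 ± 0.13 with apoE4.

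The scaffolds were close to level across the groups. *Eif4g1*, the main scaffold, ranged from 357 to 460 CPM, and its difference from control was between -0.02 and 0.02 on the log2 scale in the 3 comparisons (SE 0.11). Of its variance, 90.2% lay between replicate numbers and 2.5% between groups: it had 397 to 413 CPM in replicate 1, 426 to 448 in replicate 2, 453 to 460 in replicate 3 and 357 to 401 in replicate 4. These are the numbers in which *Eif4ebp1* ran the other way. *Eif4g2*, which encodes the eIF4G-like protein DAP5 that lacks the eIF4E-binding region, ranged from 546 to 685 CPM and differed from control by 0.07, 0.11 and 0.11 with apoE2, apoE3 and apoE4 (SE 0.09). *Eif4g3* varied most of the scaffolds, from 90.8 to 162.8 CPM, and with apoE4 it had 162.8, 140.3, 158.1 and 101.2 CPM against 134.7, 141.0, 128.7 and 106.3 CPM in control replicates. Its apoE4 difference was 0.14 ± 0.18 (95% interval -0.24 to 0.52), with 2 of 4 pairs higher.

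*Eif4a2*, the eIF4A form typical of neurons, had 468.5, 530.3, 543.9 and 493.6 CPM in control replicates 1 to 4 and 398.3, 506.1, 459.1 and 446.2 CPM with apoE4. All 4 apoE4 libraries were below the control library of the same number, by a log2 difference of -0.24 to -0.07, and the groups overlapped. The fitted difference was -0.17 ± 0.11 with apoE4 (95% interval -0.41 to 0.07, and -0.32 to -0.02 with the replicate block), -0.08 ± 0.11 with apoE3 and 0.01 ± 0.11 with apoE2. For apoE4 the edgeR adjusted p with the block was 0.224. Over the 7 tested genes other than the 4E-BPs, the 95% intervals of the log2 difference between apoE4 and control lay between -0.41 and 0.52, which leaves room for changes of that size and not for one of the size seen in *Eif4ebp2*.

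**Figure D4:**
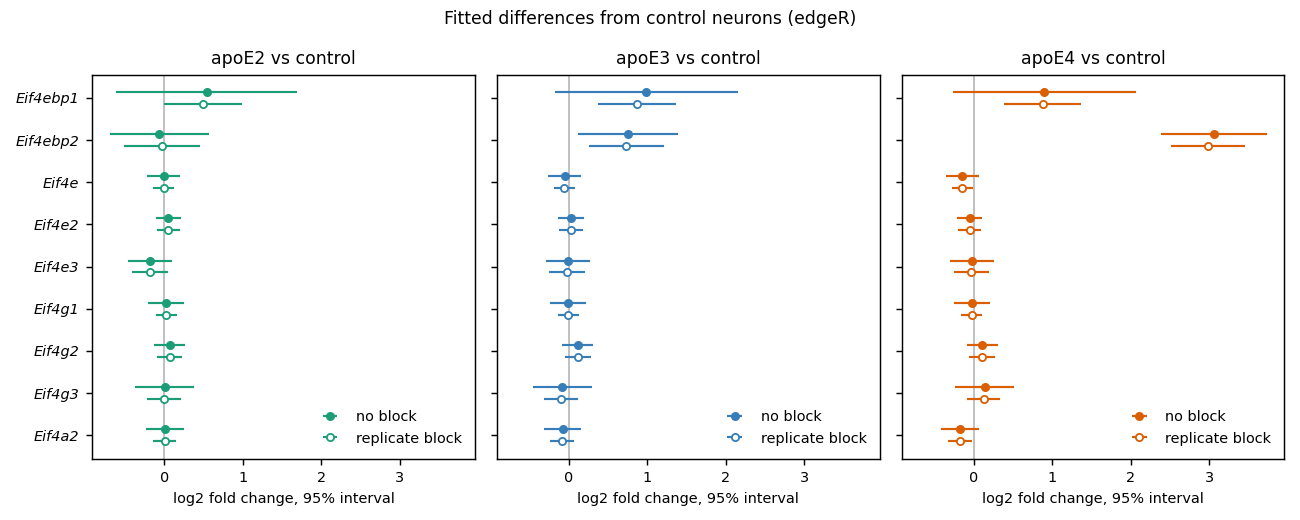
Fitted log2 fold change from control of the 9 tested genes with apoE2, apoE3 and apoE4 (points) and 95% intervals (lines), without (filled) and with (open) the replicate number as a block. *Eif4ebp2* with apoE4 is at 3.06 without the block, and the points of the other 7 genes lie between -0.18 and 0.14 in all 3 panels. The points of both 4E-BP genes lie to the right of 0 with apoE3 and apoE4. Without the block the intervals of *Eif4ebp1* cross 0 there (-0.18 to 2.15 and -0.26 to 2.06).

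Nothing is read from the number of these genes that the test called, since the set was chosen with these comparisons known. At an edgeR adjusted p below 0.05, 1 of the 9 tested genes was called between apoE4 and control, where 0.194% of all tested genes were called, 1 between apoE4 and apoE3 (0.147% of all) and 1 between apoE4 and apoE2 (0.252% of all). That gene was *Eif4ebp2* each time. Fitting only the 2 groups compared, the count was 0 between apoE4 and control and 0 between apoE4 and apoE3, and the last was also 0 without apoE3 replicate 1 or apoE3 replicate 2. Between apoE3 and control 0 of the 9 were called (0.00587% of all tested genes), between apoE2 and control 0 (0% of all) and between apoE3 and apoE2 0 (0% of all), and DESeq2 also called 0 in each. At an unadjusted p under 0.05 the counts there were 1 of the 9 (against 6.43% of all tested genes), 0 (2.79%) and 1 (2.28%). With the replicate number as a block the count changed in 1 comparison. Between apoE3 and control it became 2, *Eif4ebp1* and *Eif4ebp2*, both higher, where 11.7% of all tested genes were called. In the other blocked comparisons it was 1 for apoE4 against control (3.3% of all), apoE3 (1.77%) and apoE2 (4.44%), and 0 for apoE2 against control (1.73% of all) and for apoE3 against apoE2 (1.31% of all). At an unadjusted p under 0.05 the blocked fit had 4 of the 9 for apoE4 against control (16.6% of all), 0 for apoE2 against control (13.3% of all) and 1 for apoE3 against apoE2 (15.9% of all). The groups of *Eif4ebp2* did not overlap in the 3 comparisons of apoE4 and in that of apoE3 with apoE2. Over all tested genes, groups without overlap made up 1.91% for apoE4 against control, 2.45% for apoE4 against apoE3, 3.4% for apoE4 against apoE2 and 1.66% for apoE3 against apoE2.

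By level per length in control neurons, *Eif4a2* stood first at 95.4 ± 6.45 CPM per kb (SD, n = 4). *Eif4g2*, at 57.6 ± 3.84, and *Eif4g1*, at 57.6 ± 4.58, followed and did not differ beyond their spread. Next came *Eif4e* at 14.8 ± 1.32, *Eif4g3* at 11.5 ± 1.37, *Eif4e2* at 6.78 ± 0.318 and *Eif4e3* at 4.53 ± 0.355 CPM per kb, each with libraries that did not overlap those of its neighbours at this length. Per kb of the longest transcript instead, *Eif4e* had 16.5 to 20.1, *Eif4g3* 13.1 to 17.3 and *Eif4e2* 13.7 to 15.3 CPM, so that *Eif4g3* overlapped both. *Eif4ebp1*, at 1.78 ± 0.762, and *Eif4ebp2*, at 1.09 ± 0.180, overlapped, and *Eif4ebp3* was last at 0.104 ± 0.0941. With apoE4 *Eif4ebp2* stood at 9.15 ± 4.31 CPM per kb, from 5.15 to 14.8, overlapping *Eif4e* (12.5 to 14.9), *Eif4g3* (9.15 to 14.7), *Eif4e2* (6.03 to 7.34) and *Eif4e3* (3.72 to 5.28). Within the cap-binding family *Eif4e* made up 56.7 ± 1.66% in control neurons and 54.9 ± 1.29% with apoE4, *Eif4e2* 26.0 ± 2.04 and 26.9 ± 2.67%, and *Eif4e3* 17.3 ± 0.817 and 18.3 ± 1.66%. These shares depend on the length used: with the longest transcript in place of all exons the control shares were 48.2, 39.6 and 12.2%.

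The rest of the initiation machinery was taken from 4 lists of 72 genes, all of them tested. At an edgeR adjusted p below 0.05, 0 of the 72 were called in any of the 6 comparisons, and DESeq2 also called 0. At an unadjusted p under 0.05 there was 1 of the 72 between apoE2 and control (1.39%, against 2.79% of all tested genes), 5 between apoE3 and control (6.94 against 6.43%) and 0 between apoE4 and control (0 against 3.3%). Between isoforms there were 4 for apoE4 against apoE3 (5.56 against 4.7%), 2 for apoE4 against apoE2 (2.78 against 5.34%) and 0 for apoE3 against apoE2 (0 against 2.28%). With apoE4, 22 of the 72 were above control and 50 below, with a median log2 difference of -0.03 against 0.00 over all tested genes.

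Of the 12 partners of the cap complex, 3 were above control with apoE4 (median -0.06). The one that differed most there was *Pabpc1*, the poly(A)-binding protein that joins the tail to eIF4G, with 150 ± 26.9 CPM against 119 ± 26.1 in control (SD, n = 4; log2 difference 0.34 ± 0.17, edgeR adjusted p = 1). *Pdcd4*, an inhibitor of eIF4A, was below control in 4 of 4 pairs with each isoform, with 90.5 ± 10.8 CPM for apoE2, 85.7 ± 13.6 for apoE3 and 100 ± 8.43 for apoE4 against 112 ± 8.30. Its log2 difference was -0.38 ± 0.12 with apoE3 (edgeR adjusted p = 0.593, and 0.0178 with the replicate block), -0.30 ± 0.12 with apoE2 (adjusted p = 1, and 0.132 with the block) and -0.16 ± 0.12 with apoE4 (adjusted p = 1, and 0.424 with the block).

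Of the 10 other repressors that bind eIF4E or 4EHP, or work with such proteins, 4 were above control with apoE4 (median -0.03). *Fmr1*, which encodes the fragile X protein FMRP, differed most of the list with apoE4, at 55.6 ± 5.77 CPM against 63.3 ± 6.70 (-0.19 ± 0.11, edgeR adjusted p = 1). *Gigyf1*, a partner of 4EHP, differed most of the list with apoE2 (-0.29 ± 0.26, adjusted p = 1) and apoE3 (-0.38 ± 0.26, adjusted p = 0.806), where its level of 14.8 ± 3.01 CPM overlapped that of control, 19.3 ± 5.92.

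Of the 18 genes of mTORC1 and MNK signalling, which set the phosphorylation of the 4E-BPs and of eIF4E, 7 were above control with apoE4 (median -0.01). *Rptor*, the mTORC1 subunit that recruits the 4E-BPs, had 71.1 ± 12.5 CPM with apoE4 against 60.9 ± 7.58 in control (0.22 ± 0.15, edgeR adjusted p = 1) and 55.8 ± 8.11 with apoE2 (0.35 ± 0.15, adjusted p = 0.869, and 0.0423 with the replicate block), and was higher in 4 of 4 pairs against both. *Deptor*, an inhibitor of mTOR, differed from control more than the other genes of the list with apoE2, at 5.93 ± 2.44 CPM against 4.35 ± 1.76 (0.45 ± 0.38, adjusted p = 1, higher in 3 of 4 pairs), and had 6.19 ± 1.57 CPM with apoE3 (0.51 ± 0.38, adjusted p = 0.81, higher in 4 of 4 pairs). *Rhebl1*, a relative of the mTORC1 activator Rheb, had 2.42 ± 0.802 CPM with apoE3 against 3.77 ± 0.356 in control (-0.63 ± 0.24, adjusted p = 0.757, and 0.0407 with the block), lower in 4 of 4 pairs.

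Of the 32 factors of the 43S complex and of subunit joining, 8 were above control with apoE4 (median -0.05), 24 with apoE3 (median 0.06) and 26 with apoE2 (median 0.06). Over all tested genes the medians were 0.00, 0.02 and 0.01 in that order. These comparisons share the control libraries, and the directions were not tested. *Eif1b*, a relative of the start codon selection factor eIF1, had 189 ± 44.7 CPM with apoE3, 128 ± 33.5 in control and 123 ± 30.3 with apoE4. Its log2 difference was 0.57 ± 0.23 between apoE3 and control (edgeR adjusted p = 0.757, and 0.024 with the replicate block), 0.40 ± 0.23 between apoE2 and control (adjusted p = 1) and -0.62 ± 0.23 between apoE4 and apoE3 (adjusted p = 0.868, and 0.0465 with the block). *Eif1ax*, which encodes the scanning factor eIF1A, differed most of the list with apoE4, at 230 ± 15.4 CPM against 274 ± 51.5 (-0.25 ± 0.15, adjusted p = 1, lower in 4 of 4 pairs).

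With the replicate block 5 of the 72 genes (6.94%, against 11.7% of all tested genes) were called between apoE3 and control, *Eif1a*, *Eif1b* and *Eif2b2* higher and *Pdcd4* and *Rhebl1* lower. The block called 2 between apoE4 and apoE3 (2.78 against 1.77%), *Eif1a* and *Eif1b*, both lower with apoE4, and 1 between apoE4 and apoE2 (1.39 against 4.44%), *Rptor*, higher with apoE4. *Eif1a* and *Eif2b2* are named after their values were seen. *Eif1a*, a further gene for eIF1A, had 75.2 ± 12.1 CPM with apoE3 against 58.3 ± 7.90 in control (0.37 ± 0.12, edgeR adjusted p = 0.608, and 0.0164 with the block) and 56.9 ± 2.98 with apoE4 (-0.40 ± 0.12 between apoE4 and apoE3, adjusted p = 0.557, and 0.0367 with the block). *Eif2b2*, a subunit of the eIF2 exchange factor, had 33.1 ± 9.65 CPM with apoE3 against 24.2 ± 4.28 (0.45 ± 0.20, adjusted p = 0.767, and 0.014 with the block). The apoE3 libraries are also those in which all 7 astrocyte markers were called with the block, and 0 without it. The part of astrocytes in these differences was not tested.

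The genes whose level ran most like that of *Eif4ebp2* over the 16 libraries lay outside the initiation machinery. The likeness was Pearson's r of log2 CPM, centred on the mean of each replicate number, and the libraries share the apoE4 difference itself. It was ranked over all tested genes outside the set described here. Within the set r with *Eif4ebp2* ran from -0.860 (*Eif4a2*) to 0.597 (*Eif4ebp1*). The 5 nearest were *Zbtb39* (r = 0.990), *Gxylt1* (0.987), *Gm340* (0.984), *Foxn3* (0.982) and *Btbd7* (0.979). *Gm340* had 8.82 ± 1.35 CPM in control neurons and 27.1 ± 7.54 with apoE4 (SD, n = 4), and *Btbd7* had 20.2 ± 1.87 and 49.4 ± 18.6. All 5 differed less than *Eif4ebp2*, with fitted log2 differences between apoE4 and control of 1.06 (*Foxn3*) to 1.62 (*Gm340*). By rank correlation 2 of these 5 were again among the first 5, and without the centring 1 was.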

How the data were processed

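The authors aligned reads of the 16 libraries to mm10 with STAR and counted them per gene with HTSeq, and the deposited values are raw counts. The annotation counted and the strand setting are not given in the sources used here. Reads that HTSeq put on no single gene (38.4 to 73.7% of a library) entered neither library sizes nor tests. Counts were scaled by TMM and fitted with edgeR 4.0.16 (R 4.3.3; filterByExpr with a minimum count of 10, total of 15 and proportion of 0.7; 1 coefficient per group over 16 libraries; quasi-likelihood test). P-values were adjusted by Benjamini-Hochberg over the 17038 genes tested, and a gene was called at an adjusted p below 0.05. CPM are TMM-scaled, and log2 CPM has a prior count of 2. The fit was tested on simulated counts. DESeq2 1.42.0 was an alternative.

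The groups and replicate numbers come from the labels. The study's methods describe the libraries of a group as separate cultures. What a shared replicate number marks is not given in the sources used here. Libraries of a group differed by more than sampling noise (chi-square per degree of freedom of at least 40.2). Deviations from the group means of same-numbered libraries correlated in each of the 24 pairs (r = 0.362 to 0.831), so the numbers pair the libraries by the data, and a fit with the replicate number as a block was the main alternative.

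The members and the lists were chosen with earlier results of these data known. Named from the lists were genes called without the block and the gene with the largest log2 difference of each list in each comparison with control, plus the 5 genes most like *Eif4ebp2*. Positions and lengths are those of GENCODE M21 (mm10), which matched 95.9% of the symbols. Intervals and read numbers cover these libraries only.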

Additional observations from a re-analysis of the deposited data

How the results depend on the processing

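Of 1130 values recomputed under the alternatives, 1100 stayed within the spread between replicates or, for counts, within 1.5 times, 30 moved and 0 reversed. A change of sign within that spread was not counted as reversed, and some small log2 differences from control did change sign. *Eif4g3* with apoE3 went from -0.08 to 0.03 without apoE3 replicate 4. *Eif4g1* with apoE4 went from -0.02 to 0.04 without apoE4 replicate 4, and *Eif4ebp2* with apoE2 from -0.06 to 0.03 without control replicate 1. All 780 recomputed log2 differences of the 9 tested genes lay within 1 residual SD of the values given, and leaving out 1 library at a time put *Eif4ebp2* between apoE4 and control at 2.73 to 3.26. With the replicate number as a block the count of the 9 genes called between apoE3 and control went from 0 to 2, and the counts of the 72 pathway genes went from 0 to 5 (apoE3 against control), 2 (apoE4 against apoE3) and 1 (apoE4 against apoE2), and the block changed no other call of these genes. Fitting only the 2 groups compared, *Eif4ebp2* was not called and the count was 0 between apoE4 and control and 0 between apoE4 and apoE3, and the cause was not tested. Leaving out 1 library left 1 called in all 16 fits between apoE4 and control and in all 16 between apoE4 and apoE2, and gave 0 to 1 between apoE4 and apoE3, with 0 without apoE3 replicate 1 or apoE3 replicate 2. Leaving out all libraries of a replicate number, an alternative chosen after seeing the data, left 0 called between apoE4 and control without replicate 1, 3 or 4, 0 between apoE4 and apoE3 without replicate 1, 3 or 4, and 0 between apoE4 and apoE2 without replicate 1 or 4, in fits with 12 libraries, while the log2 difference of *Eif4ebp2* from control stayed between 2.83 and 3.20. *Eif4ebp3* had 30 reads in all and was not tested.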
